A study of Mus musculus with 2 samples.

Results

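The family of miR-15, miR-16, miR-195 and miR-497 is a set of microRNAs (miRNAs) that share their seed, the bases at positions 2 to 8 that pair with target messenger RNAs. The 6 genes described here, Mir15a, Mir16-1, Mir15b, Mir16-2, Mir195a and Mir497, were chosen by name from the 2202 miRNA genes of the count tables, and all 6 were found there. They lie in 3 clusters of 2 genes each. MiRNAs restrain the translation and stability of the messages they pair with, and several members of one seed family can act on the same message. This family is best known for holding back cell division and favouring cell death, through targets such as Bcl2, Ccnd1 and Ccne1, and for its loss in human chronic lymphocytic leukaemia, where the MIR15A/MIR16-1 locus is often deleted. In mouse heart, miR-195 takes part in the exit of muscle cells from the cell cycle, and Bace1, which encodes the beta-secretase that cuts the amyloid precursor protein, is among its reported targets.

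The libraries came from hippocampus of adult female mice of strain 5xFAD/CAST aged 8 to 10 months, and RNA shorter than 30 nt was sequenced. 5xFAD names a transgenic mouse model of amyloid plaque formation driven from the neuronal Thy1 promoter, and CAST is the short name of a strain derived from wild Mus musculus castaneus. There was 1 group with 2 biological replicates under 1 donor entry, with no control genotype, other age or other tissue, so nothing here compares conditions. The labels do not say whether the replicates came from separate animals, and the spread between them may be technical. Replicate 1 held 3135960 and replicate 2 held 4377622 reads counted for miRNA genes on their own strand, out of 9962659 and 12761689 reads. Levels are counts per 1000000 of those sense counts (CPM), and a gene with at least 10 counts in each library is called detected, which held for 384 genes. Of 12 neuronal marker genes fixed for a check of the tissue, 8 were detected. The levels of all 12 summed to 36033 CPM in replicate 1 and to 34370 CPM in replicate 2. The 3 genes of Mir124a, copies by name, had at most 8 counts each. These counts leave out reads that map to several positions, so such copies may be undercounted.

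The mature 5′ arms of the 6 genes, the strands that carry the shared seed, are given first because their likeness bears on which reads can be placed at 1 gene. All 6 genes matched the mature sequences of RefSeq for build GRCm38.p6. The capitals mark the seed, and the 6 genes give 5 distinct sequences.
miR-15a-5p: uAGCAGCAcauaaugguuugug
miR-15b-5p: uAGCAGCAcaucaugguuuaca
miR-16-5p: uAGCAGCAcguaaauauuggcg
miR-195a-5p: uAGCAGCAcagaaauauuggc
miR-497a-5p: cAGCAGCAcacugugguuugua

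Behind the seed the members fell into a pair of resemblances. Over the first 21 positions, miR-16-5p and miR-195a-5p were identical at 19, and differed by G10A and U11G, with the base of miR-16-5p written first and positions counted from 1 at the 5′ end. MiR-15a-5p and miR-15b-5p were identical at 18 positions and differed by A12C, G20A and U21C, with miR-15a-5p first. MiR-497a-5p was identical to miR-15a-5p at 17 positions and to miR-16-5p at 11. Genes of 1 cluster were thus not the ones most alike in sequence: Mir195a and Mir497, neighbours on chromosome 11, matched at 12 of 21 positions, and Mir15a and Mir16-1 at 15.

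MiR-16-5p is the only one of these 5 sequences that stands at 2 annotated positions, once in Mir16-1 and once in Mir16-2. The opposite, 3′ arms of these 2 genes are shown because they are what tells the copies apart, being identical at only 12 of 22 positions.
miR-16-1-3p: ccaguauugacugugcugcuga
miR-16-2-3p: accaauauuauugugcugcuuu
The longest run shared by the hairpins of Mir16-1 and Mir16-2 was 23 nt, which holds the whole of miR-16-5p. Among the other pairs of members with a hairpin in the same table (Mir15b, Mir16-1, Mir16-2, Mir195a and Mir497), the longest shared run was 8 to 12 nt. The tables keep reads that map to several positions in a line of their own, at 36.3% of the reads in replicate 1 and 41.7% in replicate 2. The counts of Mir16-1 and Mir16-2 may thus leave out reads of miR-16-5p, and their share was not measured here.

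In coordinates of mm10, as annotated in GENCODE M21, Mir15a (ENSMUSG00000093007.1) lies at chr14:61632027-61632110 on the minus strand in an intron of Dleu2, a long non-coding gene. Mir16-1 (ENSMUSG00000092995.1) follows it 54 bp downstream at chr14:61631880-61631972 and overlaps an exon of Dleu2. Mir15b (ENSMUSG00000065580.2, chr3:69009772-69009835) and Mir16-2 (ENSMUSG00000065606.1, chr3:69009902-69009996) lie 66 bp apart on the plus strand in an intron of Smc4, which encodes a subunit of the condensin complex that compacts mitotic chromosomes. Mir497 (ENSMUSG00000105220.1, chr11:70234717-70234800) and Mir195a (ENSMUSG00000065411.2, chr11:70235042-70235135) lie 241 bp apart on the plus strand, with no other annotated gene over them on that strand. On the other strand Mir497b spans Mir497.

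All 6 genes were detected in hippocampus, and together they held 0.335% (exact Clopper-Pearson 95% interval 0.328% to 0.341%) of the sense counts of replicate 1 and 1.14% (1.13% to 1.15%) of those of replicate 2. Reads of miR-16-5p may be missing from these shares. The mean share was 0.735% ± 0.566 (SD, n = 2), so the spread between the libraries was most of the mean. Most of the difference was in Mir195a: without it the other 5 genes held 0.189% in replicate 1 and 0.323% in replicate 2. In bulk tissue, fewer cells of a type and less of an RNA per cell cannot be told apart. The intervals given here and below reflect counting error alone. If PCR copies of a molecule were counted as separate reads, the intervals are too narrow even for that.

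Mir195a had the highest mean level. It had 4560 counts in replicate 1, a level of 1454 CPM (1412 to 1497 by the same interval), and 35569 counts in replicate 2, a level of 8125 CPM (8041 to 8210). Replicate 2 was therefore the high library by far, and the mean of 4790 ± 4717 CPM (SD, n = 2) describes neither. Mir195a ranked 78 among the 2202 genes in replicate 1 and 27 in replicate 2.

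Its cluster partner Mir497 was at 502 CPM (1573 counts) in replicate 1 and 978 CPM (4280 counts) in replicate 2, or 740 ± 337 CPM (SD, n = 2). It too was higher in replicate 2, at rank 93 against rank 125 in replicate 1.

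On chromosome 14, Mir15a was at 761 CPM (2387 counts) in replicate 1 and 1509 CPM (6607 counts) in replicate 2, or 1135 ± 529 CPM (SD, n = 2). Mir16-1 was at 298 CPM (934 counts) and 325 CPM (1424 counts), or 312 ± 19.4 CPM. Mir15a was again the higher in replicate 2, while the levels of Mir16-1 in the 2 libraries lay close together.

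On chromosome 3, Mir15b was at 238 CPM (746 counts) in replicate 1 and 316 CPM (1384 counts) in replicate 2, or 277 ± 55.3 CPM (SD, n = 2). Mir16-2 was at 94.1 CPM (295 counts) and 104 CPM (457 counts), or 99.2 ± 7.30 CPM, which made it the lowest of the 6. This pair varied little between libraries beside Mir195a.

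**Figure D1:**
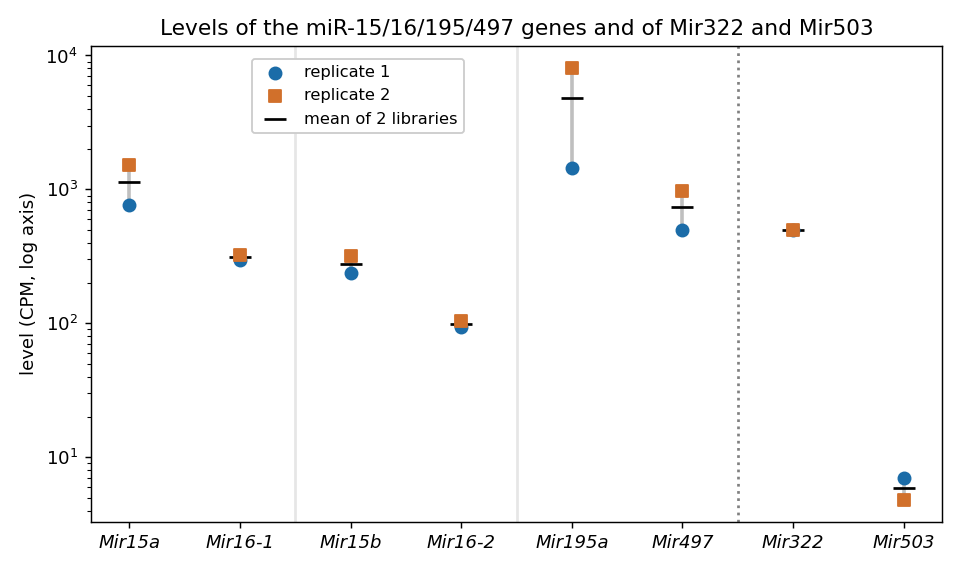
Level in CPM (log axis) of each member and, right of the dotted line, of Mir322 and Mir503. Circles are replicate 1, squares replicate 2, dashes the mean of 2 libraries, and grey lines join the 2 values. Mir195a spans 1454 to 8125 CPM, while Mir16-1, Mir16-2 and Mir322 sit at nearly the same height in both libraries.

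The order of mean levels was Mir195a, Mir15a, Mir497, Mir16-1, Mir15b and Mir16-2, and each neighbouring pair stood in that order in both libraries. By the size of the difference, 2 of the 5 steps exceeded the SD of both neighbours: Mir497 lay 428 CPM above Mir16-1, and Mir15b lay 178 CPM above Mir16-2. The step of 3654 CPM from Mir195a to Mir15a was smaller than the SD of Mir195a, 4717 CPM. The steps of 396 CPM from Mir15a to Mir497 and of 34.5 CPM from Mir16-1 to Mir15b were also within an SD of one of the neighbours. The mature arms are 21 or 22 nt long, so length hardly enters these levels, but a count per gene adds both arms of a hairpin. For Mir16-1 and Mir16-2, reads of the shared 5′ arm may be left out, so their places in the order hold for the counts only.

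The make-up of the family differed between the libraries. Mir195a supplied 43.4% (42.5% to 44.4%, exact 95% interval) of the family's 10495 counts in replicate 1 and 71.5% (71.1% to 71.9%) of its 49721 counts in replicate 2. Mir15a supplied 22.7% and 13.3%, Mir497 supplied 15.0% and 8.61%, and Mir16-1 supplied 8.90% and 2.86%. Mir15b gave 7.11% and 2.78%, and Mir16-2 gave 2.81% and 0.919%. All of the other 5 genes thus took a smaller share of the family in replicate 2, where Mir195a took more. These are shares of the family's total, and the level of each of the 5 genes in CPM was still higher in replicate 2.

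**Figure D2:**
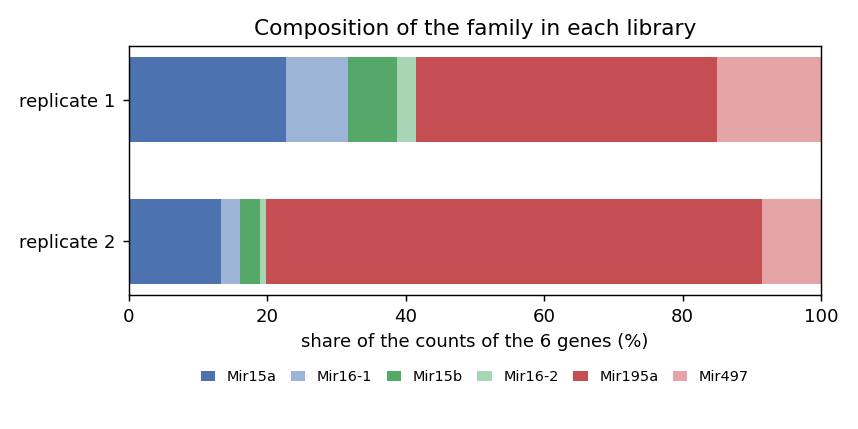
Share of each gene in the summed counts of the 6 members (%), with replicate 1 above and replicate 2 below. Mir195a fills 43.4% of the bar of replicate 1 and 71.5% of that of replicate 2.

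In each of the 3 clusters the partner with the higher count was the same in both libraries: Mir15a over Mir16-1, Mir15b over Mir16-2 and Mir195a over Mir497. Reads of miR-16-5p, which stands at 2 positions, may be missing from the counts of Mir16-1 and Mir16-2. Ratios with these genes thus compare counts and need not give the ratio of the mature miRNAs. In replicate 1 the 3 ratios were much alike. Mir15a had 2.56 (2.37 to 2.76) times the counts of Mir16-1, Mir15b had 2.53 (2.21 to 2.90) times those of Mir16-2, and Mir195a had 2.90 (2.74 to 3.07) times those of Mir497, with exact conditional 95% intervals. In replicate 2 they fanned out, to 4.64 (4.38 to 4.92) for Mir15a over Mir16-1, 3.03 (2.72 to 3.37) for Mir15b over Mir16-2 and 8.31 (8.05 to 8.58) for Mir195a over Mir497.

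The ratio of cluster partners thus differed least between libraries on chromosome 3, by 1.20-fold. There the 2 intervals overlapped, which does not show that the ratios were equal. This cluster also had the fewest counts, 1041 in replicate 1 and 1841 in replicate 2. The mean ratios were 3.60 ± 1.47 on chromosome 14, 2.78 ± 0.353 on chromosome 3 and 5.60 ± 3.83 on chromosome 11 (SD, n = 2). A ratio within 1 library does not depend on how libraries are scaled. The ratio of the miR-16 copies, Mir16-1 over Mir16-2, was 3.17 (2.77 to 3.62) in replicate 1 and 3.12 (2.80 to 3.47) in replicate 2, the steadiest of the ratios computed. It rests on reads that could be placed at a single gene, which may leave out those of miR-16-5p. Mir15a over Mir15b was 3.20 (2.95 to 3.48) in replicate 1 and 4.77 (4.50 to 5.06) in replicate 2.

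**Figure D3:**
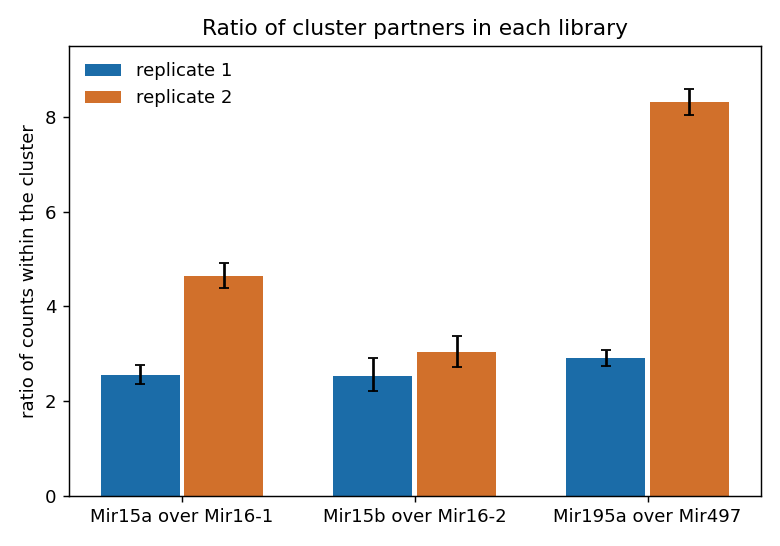
Ratio of the counts of the 2 genes of each cluster in replicate 1 and replicate 2, with exact 95% intervals that cover counting error only. The bars of replicate 1 are between 2.53 and 2.90, and those of replicate 2 between 3.03 and 8.31.

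Between the replicates all 6 genes had a lower level in replicate 1. Over all detected genes 52.9% were lower in replicate 1, and the 6 members are 3 pairs of close neighbours rather than 6 separate cases. The ratio of replicate 1 over replicate 2 was 0.179 (exact 95% interval 0.173 to 0.185) for Mir195a, 0.504 (0.481 to 0.529) for Mir15a and 0.513 (0.484 to 0.544) for Mir497. It was 0.752 (0.687 to 0.823) for Mir15b, 0.901 (0.776 to 1.05) for Mir16-2 and 0.916 (0.842 to 0.995) for Mir16-1. The counts of Mir16-2 do not separate its 2 levels beyond counting error. The median log2 ratio was -0.69 over the 6 members and -0.03 over the 384 detected genes, whose middle 90% ran from -1.03 to 1.13.

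Mir195a stood at the edge of that distribution. Only Mir301, with 57 and 1538 counts in replicates 1 and 2, had a lower ratio among the 384 genes, and 5 genes had a wider one in either direction. A ratio of at least 2 or at most 0.5 was reached by 12.2% of detected genes, and a ratio of at most 0.5 by 5.73%. Of the members, 1 of 6 was past that fold, Mir195a, while Mir15a and Mir497 lay just inside. Scaled to all reads of the library instead, Mir15a at 0.463 and Mir497 at 0.471 passed as well, which made 3 of 6 where 8.59% of detected genes did. Counted without regard to strand, Mir15a passed at 0.495, which made 2 of the 5 members with counts in that column, where Mir497 has none and 7.26% of 358 genes passed.

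**Figure D4:**
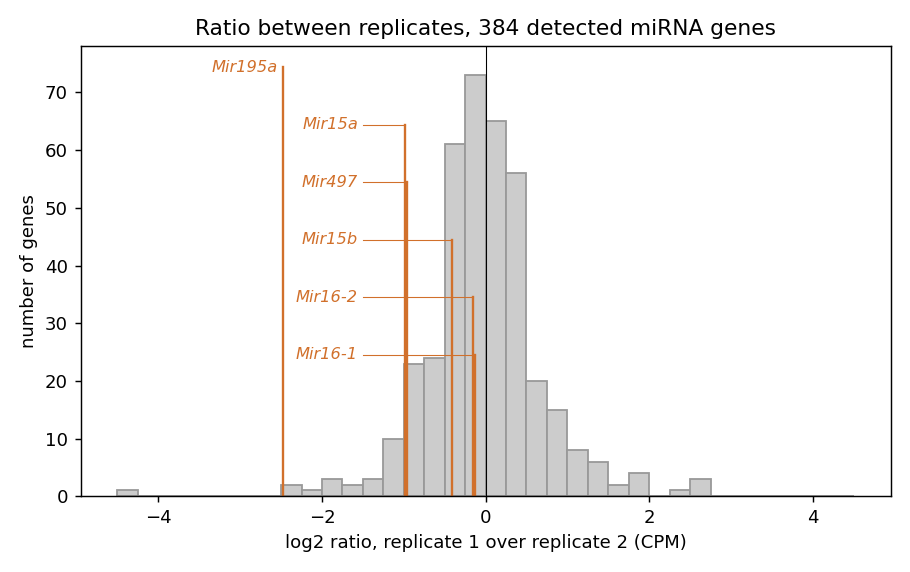
Distribution of the log2 ratio of replicate 1 over replicate 2 (CPM) over the 384 detected genes, in grey, with a line for each member (line heights carry no value). Mir195a lies at -2.48, far left of the other members, which lie between -0.99 and -0.13.

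The gap between Mir195a and Mir497 was wide for genes so close together. The 2 genes' ratios between replicates were 2.87-fold apart, against 1.82-fold for Mir15a and Mir16-1 and 1.20-fold for Mir15b and Mir16-2. Among all 101 pairs of neighbouring detected miRNA genes within 10000 bp on 1 strand, 20.8% were at least 2-fold apart, and of the 3 pairs here 1 was. On the log2 scale the 3 pairs were 1.52, 0.86 and 0.26 apart, where the median of all pairs was 0.53. A larger gap than that of Mir195a and Mir497 was found in 6 of the 101 pairs.

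Markers of other cells moved in both directions between the libraries, and their part in the difference of Mir195a was not tested. Mir126a, the 1 marker of endothelium, was at 12521 CPM in replicate 1 and 22475 CPM in replicate 2, a ratio of 0.557 that has the direction of the family. Of the 8 detected neuronal markers, 5 had that direction too, with Mir128-1 at 4545 and 9069 CPM, a ratio of 0.501, and Mir137 at 4757 and 6655 CPM. Mir132, at 21687 and 13106 CPM, had the other, and the neuronal sum was near equal in both libraries. Mir132 was the largest part of that sum in each library. The near equality thus depends on Mir132 and does not show that the other neuronal markers were level. The 5 choroid plexus and ependyma markers, all detected, summed to 3072 and 1164 CPM. Most of that difference lay in Mir34c, at 1747 and 292 CPM, while Mir211 was at 79.7 and 69.9 CPM. The 8 epithelial markers, of which 6 were detected, summed to 801 and 201 CPM. Both sums were higher in replicate 1, and 0 detected markers of either list were lower there. Markers of striated muscle, in which miR-195 is also known, were low in both libraries. The 9 genes summed to 35.1 CPM in the first replicate and 37.9 CPM in the second, with Mir1a-1, Mir1a-2, Mir133a-1, Mir133a-2 and Mir133b at 0. The genes of Mir1a and of Mir133a are copies by name, and reads that map to several positions are not counted. Their 0 counts, and with them the sum, may thus be too low. The sums of the remaining lists, over all their genes, lay closer together. The 3 oligodendrocyte markers, all detected, summed to 6799 and 6685 CPM. The 2 markers of smooth muscle and pericytes, both detected, summed to 8170 and 6864 CPM. Both myeloid markers were detected and summed to 253 and 244 CPM. The 3 red blood cell markers, of which 2 were detected, summed to 70.2 and 78.4 CPM. Of these, Mir144 had 9 and 75 counts, or 2.87 and 17.1 CPM. Mir486 was at 23.9 and 29.5 CPM, and Mir451a at 43.4 and 31.8 CPM.

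The seed is not private to these 6 genes. RefSeq gives it to 11 mouse genes, and the 5 others are Mir322, Mir195b, Mir6342, Mir6353 and Mir6419. Mir322, the mouse counterpart of human MIR424, lies on the X chromosome 200 bp from Mir503, whose 5′ arm does not carry the seed. Their 5′ arms and that of Mir195b are shown for comparison, with the shared seed in capitals.
miR-322-5p: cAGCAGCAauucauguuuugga
miR-195b: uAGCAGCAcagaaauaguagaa
miR-503-5p: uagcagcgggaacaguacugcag
Mir322 was at 498 CPM in both libraries (1563 and 2179 counts), or 498 ± 0.462 CPM (SD, n = 2), a level between those of Mir497 and Mir16-1. Its ratio of replicate 1 over replicate 2 was 1.00 (0.938 to 1.07), so it did not share the lower level of replicate 1. Mir503 had 22 counts in replicate 1 and 21 in replicate 2, at 5.91 ± 1.57 CPM. Within their cluster Mir322 outnumbered Mir503 by 71.0 (46.8 to 114) in replicate 1 and 104 (67.7 to 168) in replicate 2.

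The remaining 4 genes with this seed, Mir195b, Mir6342, Mir6353 and Mir6419, had 0 counts in both libraries, so that, with 3 counts as the floor, each could reach 0.957 CPM in replicate 1 or 0.685 CPM in replicate 2 unseen. MiR-195b differs from miR-195a-5p by U17G, G19A and C21A over 21 positions, with miR-195a-5p first. The reads came from a 5xFAD/CAST strain and were set against mm10, and the effect of strain variants on these sequences was not tested.

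On the strand opposite to their own, the 6 members had 0 counts in both libraries. At the place of Mir497, where Mir497b is annotated on the other strand, Mir497b itself had 0 counts on its own strand. Counted without regard to strand, both Mir497 and Mir497b had 0 counts, so the level of Mir497 exists only in the stranded column. The other 5 members had the same counts in both columns.

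The genes whose pair of levels was most like that of a member, by Euclidean distance in log2(CPM + 1) over the 2 libraries, were found for each. For Mir195a they were distant: Mir99b, at 2703 CPM in replicate 1 and 10743 CPM in replicate 2, lay 0.98 away and Mir30e 1.43 away. For the other 5 members the 2 nearest genes lay within 0.39: Mir337 (0.27) and Mir376a (0.39) for Mir15a, Mir381 (0.12) and Mir28a (0.37) for Mir497, Mir1981 (0.09) and Mir106b (0.20) for Mir16-1, Mir1224 (0.04) and Mir702 (0.15) for Mir15b, and Mir351 (0.12) and Mir495 (0.23) for Mir16-2. No member had another member among its 2 nearest. With 2 libraries, such likeness describes a level and 1 ratio only.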

How the data were processed

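MicroRNA-seq of 2 hippocampal libraries of 1 group was analysed. For each library the authors deposited a table of raw counts that lists 2202 miRNA genes below 4 summary lines, in 3 columns. Per the notes deposited with the tables, they rest on mm10 and annotation M21. The aligner, counter and trimming were not given in the sources used here. From names and values, the columns were taken to hold unstranded, sense-strand and opposite-strand counts in this order. The sense column was used. The summary lines, 68.5% and 65.7% of the reads in replicates 1 and 2, stayed out of library sizes; multimapping reads are among them.

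CPM, means, SDs, exact Clopper-Pearson 95% intervals of shares and exact conditional binomial 95% intervals of ratios were computed in Python 3.11.15. The packages were pandas 2.3.3, numpy 2.4.6, scipy 1.17.1 and, for plots, matplotlib 3.10.9. The intervals were tried on simulated counts with counting error only, which says nothing on PCR copies or on spread between libraries. Positions and hosts came from GENCODE M21, which matched all 2202 identifiers, and sequences from RefSeq. No test between conditions was possible with 1 group. Alternatives covered the strand column, the denominator, the count filter, pseudocounts of 0.5 and 5 CPM, edgeR 4.0.16 TMM and DESeq2 1.42.0 size factors (R 4.3.3), and each replicate left out. Named beyond the members are genes with the same seed, Mir503, genes overlapping a member, and the 2 genes nearest in level to each. The members, lists and rules were chosen with earlier results of these data known.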

Additional observations from a re-analysis of the deposited data

Results flagged for a closer look

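In the opposite-strand column, which the levels above do not use, Mir497b had 1573 counts in replicate 1 and 4280 in replicate 2, above the 3 counts that a count of 0 allows. These are the same numbers as the sense counts of Mir497, which lies inside Mir497b on the other strand, so that column lists the reads of Mir497 again under the name of its antisense neighbour.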

How the results depend on the processing

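No paired analysis was possible because there was 1 group. Apart from leaving out a replicate, 44 of 64 alternatives over 18 results stayed within the spread (1 SD, the counting interval or, for shares of genes, 1.5-fold), 20 moved and 0 reversed. Scaled to all reads of the library, which lowers every level by construction, mean levels were 379 for Mir15a, 103 for Mir16-1, 91.7 for Mir15b, 32.7 for Mir16-2, 247 for Mir497 and 1622 for Mir195a, the last within 1 SD only because that SD is near its mean. Scaled to the counts without the 10 most abundant genes they were 2661, 738, 654, 235 and 1734 CPM, and 11066 CPM for Mir195a. Without regard to strand they were 338 CPM for Mir16-1, 108 for Mir16-2 and 0 for Mir497, whose ratios then had no value. The ratio of replicate 1 over replicate 2, scaled to all reads, was 0.463 for Mir15a, 0.840 for Mir16-1, 0.164 for Mir195a and 0.471 for Mir497; with DESeq2 size factors it was 0.186 for Mir195a. The share of genes past 2-fold was 41.6% of the 757 genes with at least 1 count. Leaving out 1 replicate gave the level of the other library, which with 2 libraries always lies within 1 SD of the mean and says nothing on stability: 761 to 1509 CPM for Mir15a, 298 to 325 for Mir16-1, 238 to 316 for Mir15b, 94.1 to 104 for Mir16-2, 1454 to 8125 for Mir195a and 502 to 978 for Mir497, with cluster ratios of 2.56 to 4.64, 2.53 to 3.03 and 2.90 to 8.31 and a family share of 0.335% to 1.14%. Alternatives chosen after seeing the data were the share without Mir195a (0.256% ± 0.0948) and neighbouring pairs with at least 100 counts, of which 17.1% of 70 were at least 2-fold apart. Depth limits Mir16-2 most, with 295 counts in replicate 1.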

Other observations

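Among the 6 neighbouring pairs of detected miRNA genes with a larger gap between replicates than Mir195a and Mir497 were Mir99b and Mirlet7e, which lie 94 bp apart. The log2 ratio of replicate 1 over replicate 2 was -1.99 for Mir99b and -0.12 for Mirlet7e, a gap of 1.87, with at least 8476 counts for each gene in each library. The widest gap, 2.34, was between Mir376c at 1.35 and Mir376b at -0.98, and the next, 2.29, between Mir296 at -1.01 and Mir298 at 1.29. These pairs were picked for their gaps and carry no test.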
